A study of Mus musculus with 12 samples.

Results

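The genes described here mark the surface and the stages of the oligodendrocyte precursor lineage. They are Pdgfra, Cspg4, Lhfpl3, C1ql1, Xylt1, Gpr17, Neu4, Bcas1, Enpp6 and Gpr37, and they were found by their gene symbol among the 55471 Ensembl genes of the count table. All 10 were present, and all 10 were among the 19578 genes that the filter on low counts kept for testing. RNA-seq libraries were made from hippocampal cultures of wild-type CD1 mouse embryos of mixed sex at E17, to which antisense LNA gapmers packed in lipid nanoparticles were given at DIV 7 (days in vitro), with RNA taken on DIV 10. A gapmer is a short modified DNA strand that lets RNase H cut the RNA it pairs with. The control group (6 libraries) received a negative control gapmer and the Neuid KD group (6 libraries) received a gapmer against Neuid, a long noncoding RNA of neurons, so every library carries a gapmer and its lipid particle. The labels call the cells primary hippocampal neurons, and nothing in them says that the 6 libraries of a group came from separate cultures, so p-values measure the spread between these libraries, which may be technical.

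Oligodendrocyte precursors are dividing glia that carry the PDGF receptor alpha and the proteoglycan NG2 on their surface, and they respond to PDGF made by neurons and astrocytes. When they leave the cell cycle they pass through a short committed stage with GPR17, BCAS1 and ENPP6 before they make myelin. The transcription factors OLIG2 and SOX10 act through most of this lineage. Several of the genes are not exclusive to it: Pdgfra is also made by fibroblasts, Cspg4 by mural cells of blood vessels, and Xylt1 and Gpr37 by other cells of the brain.

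The control libraries held 18002585 to 30914714 counted reads and the Neuid KD libraries 11152556 to 30573480. The libraries differed in background, taken as the summed reads on chemosensory receptor genes, which are made in sensory cells of the nose and tongue. It was between 26.0 and 653 CPM (counts per 1000000 reads of the scaled library) in control and between 26.9 and 604 CPM in Neuid KD. Background reached 100 CPM in 7 libraries (4 control and 3 Neuid KD) and stayed under it in 5 (2 control and 3 Neuid KD). Neuid (Gm10419, ENSMUSG00000072769) was between 26.0 and 31.0 CPM in control and between 6.32 and 9.55 CPM in Neuid KD (log2 fold change -1.81, standard error 0.0845). Summed neuron markers were between 7221 and 8496 CPM in control and between 7344 and 8695 CPM in Neuid KD. Summed astrocyte markers were between 1672 and 2116 CPM in control and between 3086 and 3735 CPM in Neuid KD, with Slc1a2 the most abundant of them.

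The upstream sequence is shown for the 3 precursor surface genes with a promoter in the RefSeq table, because OLIG2 belongs to the factors that bind E-boxes and its gene rose in Neuid KD. The hexamers CAGCTG and CAGATG, each searched on both strands (CATCTG is CAGATG on the other strand), are in capitals. The sequences run 5′ to 3′ on the plus strand of GRCm38.p6, and Cspg4 is shown as far as the earlier of its annotated starts.
Pdgfra, chr5:75152001-75152250: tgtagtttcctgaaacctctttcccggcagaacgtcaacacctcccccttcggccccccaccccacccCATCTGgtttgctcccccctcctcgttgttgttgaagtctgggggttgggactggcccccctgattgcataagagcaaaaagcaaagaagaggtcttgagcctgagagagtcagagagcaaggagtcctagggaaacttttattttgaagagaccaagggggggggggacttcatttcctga
Lhfpl3, chr5:22745804-22746053: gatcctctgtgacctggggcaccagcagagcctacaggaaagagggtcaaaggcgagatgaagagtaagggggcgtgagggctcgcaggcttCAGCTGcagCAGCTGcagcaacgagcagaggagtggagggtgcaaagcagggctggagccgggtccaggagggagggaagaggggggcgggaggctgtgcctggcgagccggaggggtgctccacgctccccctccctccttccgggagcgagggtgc
Cspg4, chr9:56864854-56865032: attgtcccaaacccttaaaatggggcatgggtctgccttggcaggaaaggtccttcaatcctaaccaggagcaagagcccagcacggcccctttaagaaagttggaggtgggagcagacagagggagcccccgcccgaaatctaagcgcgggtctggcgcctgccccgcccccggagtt
In the 250 bases before the RefSeq start, Pdgfra held 1 match, Lhfpl3 held 2 and Cspg4 held 0. Of the 6 genes of the panel in the table, 3 held a match, the other being Gpr37 with 1, and Neu4 and Enpp6 held 0. The Gpr37 window (chr6:25689981-25690230, minus strand) lies inside the annotated gene (chr6:25665878-25690729), past the earlier of its annotated starts. Among the 32851 windows of the table, 25.5% held at least 1 of the hexamers (13.0% CAGCTG and 14.4% CAGATG). A match is a description of the letters and not a binding site. Xylt1, C1ql1 and Bcas1 had no entry, and Gpr17 was not searched.

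The surface and stage markers did not change by equal amounts in Neuid KD. Xylt1 rose 2.59-fold, Lhfpl3 rose 1.46-fold at the edge of the threshold, and 0 of the 10 were called lower. Pdgfra and Cspg4, which define the precursor surface, had positive log2 fold changes (0.44 and 0.16) that did not pass the test. The stage genes Bcas1, Gpr17 and Enpp6 had negative ones (-0.36, -0.77 and -0.78) and Neu4, Gpr37 and C1ql1 lay near 0 (0.04, -0.05 and -0.05), and none of these passed. The value of Gpr17 turned to 0.016 and 0.041 with 1 and 2 factors of unwanted variation in DESeq2 and was -0.14 with background as a covariate. The 2 genes called higher, of 10, stand beside 6.31% of all tested genes called higher and 2.42% called lower (edgeR's quasi-likelihood test, Benjamini-Hochberg adjusted p under 0.05). Both also passed a log2 fold change of 0.5, as did 2.44% of all tested genes (0.792% passed -0.5). The median log2 fold change was -0.00 over the 10 genes (0.05 with background as a covariate) and -0.03 over all tested genes. Of the calls over all genes, 72.3% were higher, and with upper-quartile scaling 45.5% were. With that scaling Xylt1 was the only member called, at an adjusted p of 0.0647 for Lhfpl3.

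**Figure D1:**
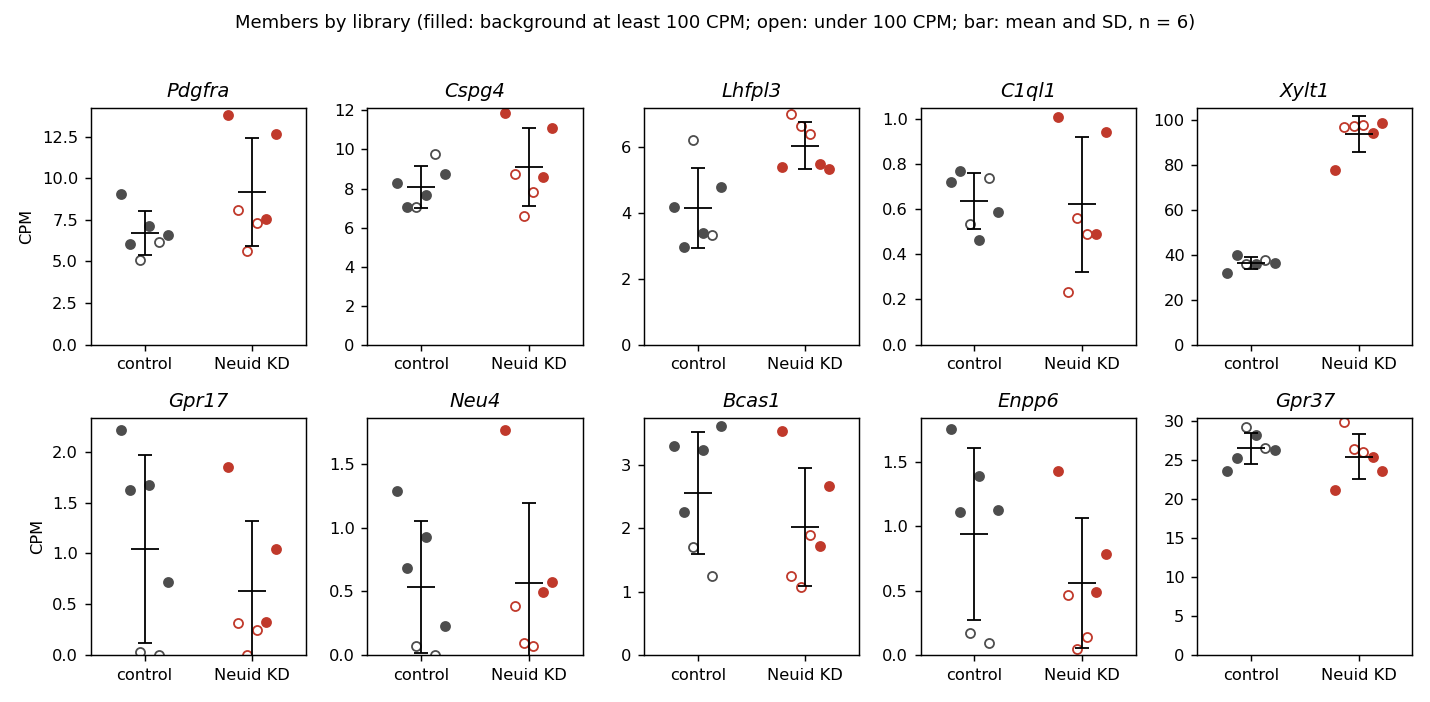
Counts per 1000000 reads (CPM, linear axes from 0) of each of the 10 genes in the 6 control (grey) and 6 Neuid KD (red) libraries, with the mean and SD as a black bar; filled points are libraries with at least 100 CPM of background and open points those under it. Xylt1 has no overlap between the groups (control up to 40.1 CPM, Neuid KD from 77.6 CPM), whereas for Gpr17 and Enpp6 the filled points lie above the open points.

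Pdgfra (ENSMUSG00000029231, chr5:75152292-75198215, plus strand) encodes the receptor through which PDGF-A keeps precursors dividing. It was at 5.10, 6.40 and 9.03 CPM in control (lowest, median and highest library) and at 5.61, 7.81 and 13.8 CPM in Neuid KD. The groups overlapped, and Neuid KD replicates 1 and 6, at 13.8 and 12.7 CPM, stood above the other 10 libraries. They were the Neuid KD libraries with the most background (604 and 326 CPM), and the mean of Pdgfra over both groups was 1.39 times higher in the libraries with at least 100 CPM of background than in the others. Expected background was 12.5 of 164 and 10.9 of 242 Pdgfra reads in these replicates, and 7.73% in control and 3.73% in Neuid KD. Control replicates 1 and 4, with 653 and 579 CPM of background, were at 9.03 and 7.14 CPM. The means were 6.69 ± 1.33 and 9.17 ± 3.27 CPM (SD, n = 6 per group), with a log2 fold change of 0.44 (95% interval 0.03 to 0.84, edgeR adjusted p = 0.223). Without Neuid KD replicate 1 the log2 fold change was 0.26, and without replicate 6 it was 0.28. Pdgfra passed the test in 5 of the 26 alternatives, among them a replicate block. The adjusted p was 0.00365 with background as a covariate, 0.00368 and 0.00204 with 1 and 2 factors of unwanted variation in DESeq2, and 0.00616 in edgeR within the 7 libraries with at least 100 CPM of background (log2 fold change 0.64). Within the 5 libraries under 100 CPM the log2 fold change was 0.30 (adjusted p = 0.357), and with the expected background subtracted it was 0.49 (adjusted p = 0.11). Pdgfra shares exonic bases with Gm42802 and Gm42803 on the opposite strand and with Mir7025, and whether strand was used in counting is not given in the sources used here.

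Cspg4 (ENSMUSG00000032911, chr9:56865033-56899870, plus strand) encodes the NG2 proteoglycan core protein. It was at 7.04, 7.96 and 9.76 CPM in control and at 6.60, 8.65 and 11.9 CPM in Neuid KD. The groups overlapped, and the highest Neuid KD libraries were again replicates 1 and 6, at 11.9 and 11.1 CPM. The log2 fold change was 0.16 (95% interval -0.11 to 0.43, edgeR adjusted p = 0.63), and the interval lies below the changes of Xylt1 and Olig2. Within the 5 libraries under 100 CPM of background it was -0.13.

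In bulk RNA, more cells of a type and more RNA per cell cannot be told apart. Markers of the other cells that make these genes were therefore looked up beside them. The 8 tested fibroblast markers had a median log2 fold change of -0.57, with 1 of them called lower (Fn1, a matrix glycoprotein, -0.46, adjusted p = 0.00522) and 0 higher. Their summed level was between 95.5 and 127 CPM in control and between 75.8 and 89.2 CPM in Neuid KD. Fn1 was the largest part of this sum, its mean falling from 60.8 to 43.8 CPM with the knockdown, so the sum mainly follows this gene. Col1a1 and Col3a1, collagen genes, were at 5.67 and 5.60 CPM in control and at 3.10 and 3.06 CPM in Neuid KD (adjusted p = 0.303 and 0.28), and Dcn and Col6a1 had log2 fold changes of -0.05 and 0.20. Of the 8 tested mural cell markers 0 were called (median -0.28, from -0.85 for Kcnj8 and -0.50 for Vtn to 0.10 for Acta2 and 0.37 for Pdgfrb). Rgs5, the most abundant of them, was at 8.89 and 7.74 CPM. The mural markers summed to between 14.1 and 32.7 CPM in control and between 14.7 and 34.0 CPM in Neuid KD. There, replicates 1, 5 and 6 were at 34.0, 21.9 and 20.8 CPM. Over both groups this sum was from 19.3 CPM up in libraries with at least 100 CPM of background and up to 17.7 CPM in the others. None of the fibroblast and mural markers was at 0 in all libraries. The part of these cells in the Pdgfra and Cspg4 values was not tested.

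Lhfpl3 (ENSMUSG00000106379, chr5:22746059-23275597, plus strand) encodes a tetraspan membrane protein often used as a precursor marker. It was at 2.95, 3.78 and 6.20 CPM in control and at 5.34, 5.95 and 6.98 CPM in Neuid KD. All Neuid KD libraries were above 5 of the 6 control libraries, and control replicate 3, at 6.20 CPM, lay among them. The log2 fold change was 0.54 (standard error 0.164, 95% interval 0.20 to 0.89, edgeR adjusted p = 0.0499). Without control replicate 3 it was 0.71 (adjusted p = 0.00365), and without any 1 of the other 11 libraries the adjusted p was between 0.0628 and 0.179, so that the call was lost. Within the libraries with at least 100 CPM of background and within those under it the log2 fold changes were 0.51 and 0.43 (adjusted p = 0.283 and 0.199). Lhfpl3 shares 567 exonic bases with A930003O13Rik on the opposite strand.

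C1ql1 (ENSMUSG00000045532, chr11:102939264-102946688, minus strand) encodes a secreted C1q-like protein. It had between 6 and 18 reads per library, which is 0.464, 0.655 and 0.769 CPM in control and 0.233, 0.527 and 1.01 CPM in Neuid KD. The control range lay inside that of Neuid KD. The log2 fold change was -0.05 with a 95% interval of -1.01 to 0.90 (edgeR adjusted p = 0.974).

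Xylt1 (ENSMUSG00000030657, chr7:117380979-117673580, plus strand) encodes a xylosyltransferase, which adds the first sugar of the chondroitin and heparan sulfate chains that proteoglycans such as NG2 carry. It was at 31.8, 36.0 and 40.1 CPM in control and at 77.6, 97.3 and 98.9 CPM in Neuid KD. No library of either group reached the other group, and 5 of the 6 Neuid KD libraries lay between 94.2 and 98.9 CPM. The means were 36.2 ± 2.70 and 93.9 ± 8.12 CPM (SD, n = 6 per group), and the log2 fold change was 1.38 (standard error 0.0657, edgeR adjusted p = 1.81e-10). Among all tested genes, 4.13% had the whole Neuid KD range above the control range and 1.57% had it below. The log2 fold change lay between 1.32 and 1.40 over all 26 alternatives, and expected background made up 1.34% of its reads in control and 0.324% in Neuid KD.

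**Figure D2:**
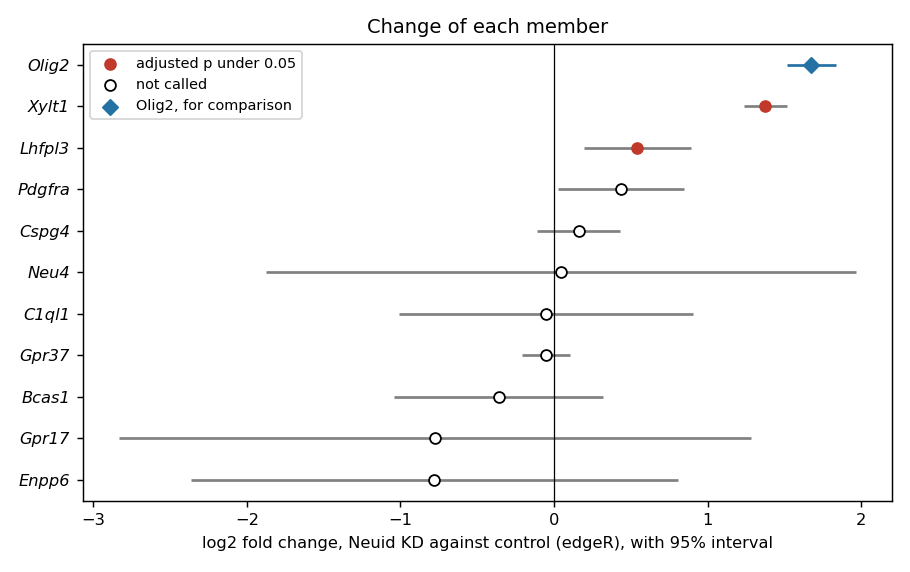
Log2 fold change of each of the 10 genes and of Olig2, Neuid KD against control, from edgeR (x axis; points with 95% intervals); red points had an adjusted p under 0.05. Xylt1 (1.38) stands close to Olig2 (1.67), whereas the intervals of C1ql1, Gpr17, Neu4 and Enpp6 span 0 by more than 0.5 on either side.

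Of the 16 other enzymes of glycosaminoglycan chain synthesis tested, 3 were called higher and 0 lower, with a median log2 fold change of 0.07. Csgalnact1, which starts the chondroitin chain, rose from 4.47 to 8.18 CPM (log2 fold change 0.88, adjusted p = 0.00164). Chsy1, a chondroitin synthase, rose by 0.35 on the log2 scale, and Ext1, a heparan sulfate polymerase, rose by 0.34. Xylt2, the paralog with the same activity as Xylt1, was at 22.5 and 23.4 CPM in control and Neuid KD (log2 fold change 0.06, adjusted p = 0.76). The lowest values were those of Chpf2 (-0.07) and Pxylp1 (-0.03), which did not pass the test.

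Astrocyte markers were higher in the libraries in which Xylt1 was. Of the 10 tested astrocyte markers, 9 were called higher and 0 lower, with a median log2 fold change of 1.23 and 0 listed at 0 in all libraries. Gja1, a gap junction protein, rose by 2.27 on the log2 scale and Aqp4, a water channel, by 2.10. The smallest changes were those of Ntsr2 (0.41, adjusted p = 0.159) and Aldoc (0.47, called), and Slc1a2, a glutamate transporter and the most abundant of the list, rose by 0.63. Their summed level did not overlap between the groups. The part of astrocytes in the Xylt1 result was not tested.

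The genes whose centred log2 CPM lay closest to that of Xylt1 over the 12 libraries, among 15204 genes that averaged 1 CPM or more, were Egfr, Nacc2 and Tril. Their mean absolute differences from Xylt1 were 0.0454, 0.0602 and 0.0609 on the log2 scale. For Pdgfra the closest were Phldb2, Evc2 and Msrb3 (0.141, 0.144 and 0.145), and for Cspg4 they were Fahd1, Bckdk and Amotl2 (0.113, 0.116 and 0.118). All 12 points of each gene share their library and its depth. The genes nearest to Xylt1 thus lay closer than those nearest to Pdgfra or Cspg4, which had fewer reads.

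Gpr17 (ENSMUSG00000052229) encodes a receptor of committed precursors. Its reads split by background and not by group. In the 7 libraries with at least 100 CPM of background it had 8 to 43 reads, and in the 5 under it 0 to 8 reads, with mean levels of 1.35 and 0.118 CPM. In CPM the libraries of the first kind, from 0.328 up, did not overlap those of the second, up to 0.31. By group it was at 0, 1.17 and 2.22 CPM in control and at 0, 0.319 and 1.85 CPM in Neuid KD. The log2 fold change was -0.77 with a 95% interval of -2.83 to 1.28 (edgeR adjusted p = 0.791). At the read density of chemosensory receptor genes, background was expected to give 27.0% of its reads in control and 33.5% in Neuid KD. It was 11.4 of 43 reads in control replicate 1 and 0.704 of 1 read in control replicate 3. Whether Gpr17, Neu4 and Enpp6 carried more background than this density was not tested, so their shares may be too low. In the 2 libraries without a read, control replicate 5 and Neuid KD replicate 3, a count of 0 allows up to 0.139 and 0.14 CPM (3 reads, counting error only). Gpr17 shares 188 exonic bases with Lims2 on the opposite strand.

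Neu4 (ENSMUSG00000034000, chr1:94020451-94028334, plus strand), a sialidase, was also higher on average in the libraries with more background, but the 2 kinds of library overlapped (from 0.226 CPM up in the first and up to 0.388 CPM in the second). It had 5 to 25 reads in the libraries with at least 100 CPM of background and 0 to 10 in the others, with mean levels of 0.852 and 0.124 CPM. It was at 0, 0.455 and 1.29 CPM in control and at 0.0699, 0.44 and 1.77 CPM in Neuid KD. The groups overlapped throughout, with a log2 fold change of 0.04 and a 95% interval of -1.88 to 1.96 (edgeR adjusted p = 0.989). Expected background made up 47.5% of its reads in control and 33.5% in Neuid KD, and the count of 0 in control replicate 5 allows up to 0.139 CPM.

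Enpp6 (ENSMUSG00000038173, chr8:46986887-47096762, plus strand) encodes a choline phosphodiesterase that marks newly forming oligodendrocytes. It had 12 to 34 reads in the libraries with at least 100 CPM of background and 1 to 12 in the others, with mean levels of 1.16 and 0.182 CPM. It was at 0.0925, 1.12 and 1.76 CPM in control and at 0.0468, 0.479 and 1.43 CPM in Neuid KD. As for Gpr17, the CPM of the 2 kinds of library did not overlap, while those of the 2 groups did. The log2 fold change was -0.78 (95% interval -2.37 to 0.80, edgeR adjusted p = 0.707), and expected background made up 36.6% and 44.1% of its reads in control and Neuid KD.

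**Figure D3:**
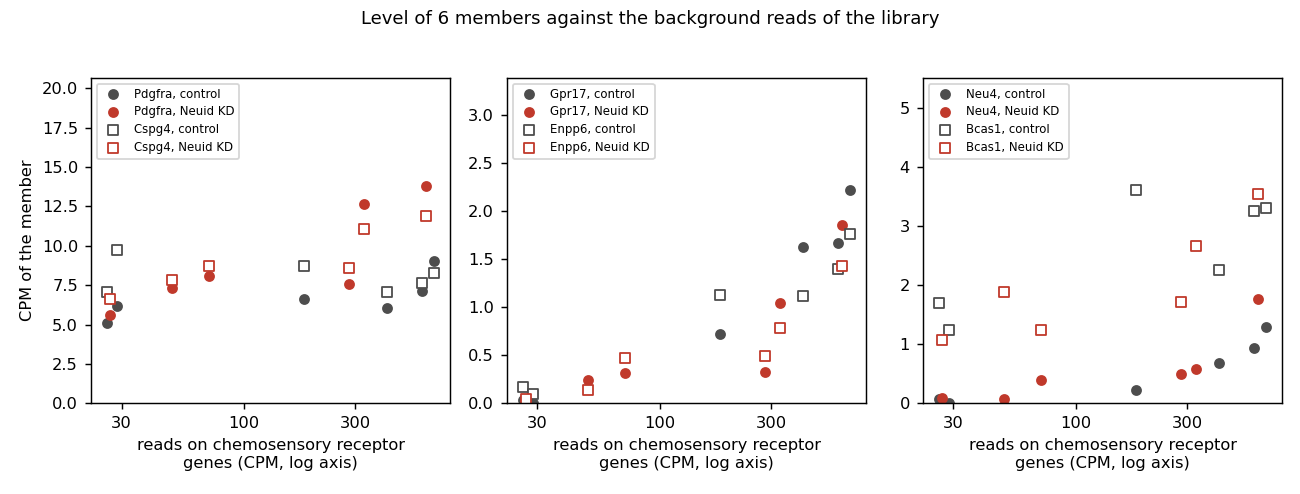
CPM of 6 genes in each library (y axis, from 0) against the summed CPM on chemosensory receptor genes (x axis, log scale), with control in grey and Neuid KD in red. Gpr17, Enpp6 and Neu4 lie near 0 in the libraries with the least background and higher in those with the most, and Pdgfra and Cspg4 are above 5 CPM in every library, with the highest Pdgfra values in 2 Neuid KD libraries with over 300 CPM of background.

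Bcas1 (ENSMUSG00000013523, chr2:170346991-170427845, minus strand) marks cells between the precursor and the myelinating stage. It was at 1.25, 2.76 and 3.62 CPM in control and at 1.08, 1.81 and 3.54 CPM in Neuid KD, from 23 to 80 reads. The groups overlapped, with a log2 fold change of -0.36 (95% interval -1.04 to 0.32, edgeR adjusted p = 0.676). Its mean was 2.91 CPM in the libraries with at least 100 CPM of background and 1.43 CPM in the others. Expected background held 7.63% of its reads in control and 6.49% in Neuid KD. Bcas1os1 and Bcas1os2 lie antisense to it and share 440 and 34 exonic bases.

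Gpr37 (ENSMUSG00000039904, chr6:25665878-25690729, minus strand), a receptor of maturing oligodendrocytes that other brain cells also make, was at 23.5, 26.5 and 29.2 CPM in control and at 21.2, 25.7 and 29.95 CPM in Neuid KD. The groups overlapped. Its log2 fold change was -0.05 with the narrowest interval among the uncalled genes of the panel, -0.21 to 0.10 (edgeR adjusted p = 0.815). It lay between -0.13 and -0.02 over the 26 alternatives.

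Levels between genes can be compared per length of exonic sequence. In control the order was Gpr37 (4.37 ± 0.332 CPM per kb, SD, n = 6), Xylt1 (3.75 ± 0.280), Lhfpl3 (1.29 ± 0.377), Bcas1 (0.679 ± 0.256), Cspg4 (0.677 ± 0.0887), Pdgfra (0.668 ± 0.133), C1ql1 (0.432 ± 0.0850), Gpr17 (0.201 ± 0.179), Enpp6 (0.147 ± 0.105) and Neu4 (0.115 ± 0.112). Of neighbours in this order, Gpr37 and Xylt1, Xylt1 and Lhfpl3, and Pdgfra and C1ql1 lay apart by mean ± SD, and the others did not differ beyond their spread. Chemosensory receptor genes, measured the same way, were between 0.00452 and 0.113 CPM per kb in the control libraries. In Neuid KD Xylt1, at 9.73 ± 0.841 CPM per kb, stood above Gpr37 at 4.20 ± 0.483, and Pdgfra (0.915 ± 0.326) and Cspg4 (0.764 ± 0.167) stood above Bcas1 (0.536 ± 0.246) within their spread.

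Whether the genes changed by different amounts was tested within libraries, where scaling cancels, as the log2 ratio of each gene's reads to those of Pdgfra (two-sided exact permutation test over all arrangements of 6 against 6, smallest p = 0.00216, Benjamini-Hochberg adjusted over 9 pairs). Gpr17 had too few reads for it. The ratio of Xylt1 to Pdgfra rose by 0.97 (standard error 0.282, adjusted exact permutation p = 0.0325), and that of Bcas1 to Pdgfra fell by 0.76 (0.228, adjusted exact permutation p = 0.0325). Xylt1 and Bcas1 thus departed from Pdgfra in opposite directions. The ratio of Olig2 to Pdgfra rose by 1.29 (0.258, adjusted exact permutation p = 0.0195), with no overlap between the groups. For Cspg4 the change was -0.25 ± 0.139 (standard error, adjusted exact permutation p = 0.195), for C1ql1 -0.56 ± 0.278 (0.122), for Gpr37 -0.47 ± 0.297 (0.237), for Enpp6 -1.14 ± 0.782 (0.248), for Lhfpl3 0.18 ± 0.340 (0.684) and for Neu4 0.01 ± 0.997 (0.998). The Xylt1 ratio passed in 5 and the Bcas1 ratio in 6 of the 12 fits that leave out 1 library, with adjusted p up to 0.0714, and the Olig2 ratio passed in all 12. The 7 fits without a call for Xylt1 left out any control library or Neuid KD replicate 2, and the 6 for Bcas1 left out control replicate 1, 2, 3, 4 or 6 or Neuid KD replicate 2. With expected background subtracted, these 3 ratios kept their calls. For Bcas1 the subtraction took only 7.63% (control) and 6.49% (Neuid KD) of the reads, so it could move that ratio only a little. Mean Bcas1 was 2.91 CPM where background reached 100 CPM and 1.43 CPM where it did not. Within these 2 kinds of library its log2 fold change was -0.25 and -0.10, and that of Pdgfra was 0.64 and 0.30. The ratios were not tested within either kind.

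**Figure D4:**
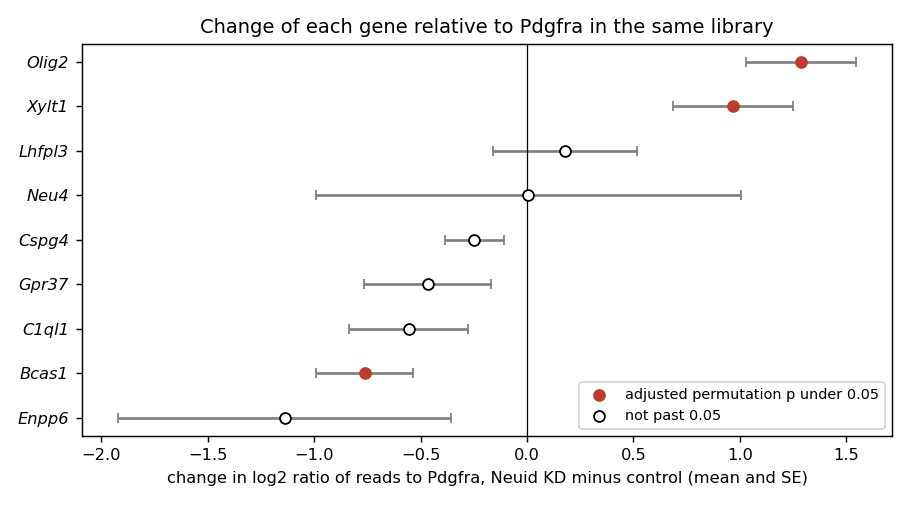
Change of the log2 ratio of each gene's reads to those of Pdgfra in the same library, Neuid KD minus control (x axis; mean difference and standard error, n = 6 per group); red points had an adjusted exact permutation p under 0.05. Olig2 (1.29) and Xylt1 (0.97) lie to the right of 0 and Bcas1 (-0.76) to the left.

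The transcription factors of the lineage also held called and uncalled genes. Of 10 tested, 5 were called higher and 0 lower, with a median log2 fold change of 0.47. Olig2, which specifies the lineage, was at 8.88, 10.8 and 12.4 CPM in control and at 30.8, 34.4 and 35.6 CPM in Neuid KD (log2 fold change 1.67, adjusted p = 8.82e-11). Olig1, its neighbour and paralog, rose by 1.47, and Sox8 and Tcf7l2 were among the other calls. Sox10, which the whole lineage carries, was at 1.04 and 1.12 CPM (log2 fold change 0.09, adjusted p = 0.954). The lowest values were those of Myrf, the regulator of myelin genes (-0.77, adjusted p = 0.514), and Nkx6-2 (-0.37, adjusted p = 0.878).

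Other genes with precursor expression also included both called and uncalled members. Of 16 tested, 5 were called higher and 0 lower, with a median of 0.13. Ptprz1, a receptor phosphatase, rose by 1.36 on the log2 scale and Luzp2 by 1.20, and the other calls were Cspg5, Megf11 and Vcan. Cspg5 and Ptprz1 are also made by astrocytes. Matn4 (-0.33, adjusted p = 0.811) and Rlbp1 (-0.22, adjusted p = 0.168) had the lowest values.

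Of the 9 tested genes of newly formed oligodendrocytes, 4 were called higher and 0 lower, with a median of 0.02 (-0.04 with upper-quartile scaling). Itpr2, an intracellular calcium channel, rose by 1.17 and Cnksr3 by 0.85, and Fyn and Sirt2 were also called. Kif19a (-0.95, adjusted p = 0.465) and Rras2 (-0.15, adjusted p = 0.101) had the lowest values. Of 13 myelin genes 8 were tested, of which 0 were called higher and 1 lower, with a median of -0.19 (0.03 with background as a covariate). Mbp, myelin basic protein, fell from 8.11 to 5.14 CPM (log2 fold change -0.66, adjusted p = 0.000973). Ermn was at -0.70 (adjusted p = 0.519), Mal at 0.41 (0.87) and Cnp at 0.10 (0.636). The 5 myelin genes that were not tested, Mog, Mag, Cldn11, Opalin and Aspa, had too few reads.

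**Figure D5:**
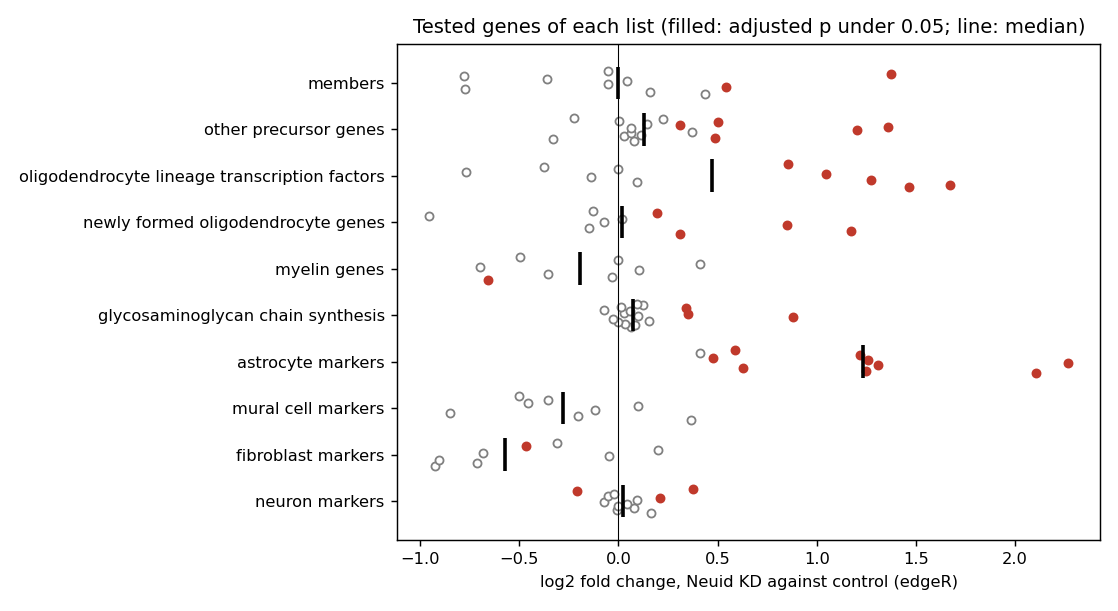
Log2 fold change of every tested gene of 10 lists, Neuid KD against control (x axis, edgeR), one point per gene and one row per list; red points had an adjusted p under 0.05 and the black line is the median of the list. The median of the 10 surface and stage markers is at -0.00, that of the transcription factors at 0.47 and that of astrocyte markers at 1.23.

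Genes of PDGF ligands and of the other PDGF receptors were measured as well. Of the 6 tested PDGF ligands and other PDGF receptors 0 were called (median log2 fold change 0.15). Pdgfa was at 40.2 and 39.2 CPM in control and Neuid KD (log2 fold change -0.04, adjusted p = 0.812), and Pdgfc was at 4.28 and 4.24 CPM (-0.01, adjusted p = 0.985). Pdgfd was at 0.728 and 1.61 CPM (1.14, adjusted p = 0.222) and the receptor gene Pdgfrb at 3.58 and 4.60 CPM (0.37, adjusted p = 0.503).

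Of 15 tested family relatives of the 10 genes, 2 were called higher and 0 lower, with a median of -0.10. Lhfp, a relative of Lhfpl3, rose from 5.71 to 9.16 CPM (log2 fold change 0.67, adjusted p = 0.000319), and Lhfpl2 rose by 0.41. Gpr37l1, the paralog of Gpr37, was at 0.387 and 0.883 CPM (1.18, adjusted p = 0.312). Enpp1 was at -0.64 (adjusted p = 0.441) and Neu3 at -0.46 (0.644).

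Markers of the remaining cell types were looked up as well. Of 12 tested neuron markers 2 were called higher and 1 lower (median 0.02, and -0.04 with upper-quartile scaling). Camk2a, a kinase of excitatory neurons, rose by 0.38 and Nefm, a neurofilament, by 0.21, while Elavl4 fell by 0.21. Stmn2 was at -0.07 (adjusted p = 0.503), and Map2, the most abundant of the list, was at -0.01 (0.964). Of 5 tested microglia markers 0 were called (median -0.31). Csf1r (-0.40), Trem2 (-0.31) and Cx3cr1 (-0.24) had adjusted p between 0.587 and 0.929. Of 6 tested endothelial markers 0 were called (median -0.26, and 0.05 with background as a covariate), with Tek at -1.22, Pecam1 at -1.01, Slco1a4 at -0.07 and Kdr, the most abundant, at -0.02 (adjusted p from 0.413 to 0.978).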

How the data were processed

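Raw read counts per Ensembl gene were deposited by the authors for 12 RNA-seq libraries of mouse hippocampal cultures, prepared with a stranded total RNA kit for low input. The authors demultiplexed with bcl2fastq, aligned to mm10 (GRCm38) with STAR and counted with featureCounts, and the strand setting and annotation release are not given in the sources used here. Reads on 1780 chemosensory receptor genes, per kb of exon, gave the background expected on other genes. A gene may carry more or less background than this density, which also limits the fits with background subtracted.

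Counts were tested with edgeR 4.0.16 (TMM, filterByExpr, group only, quasi-likelihood test, Benjamini-Hochberg over all tested genes). Groups came from the sample titles. DESeq2 1.42.0 with and without factors of unwanted variation (RUVs, written anew) was an alternative. The study names DESeq2 with RUVseq and gives no variant or number of factors. Other alternatives were other scalings, filters, background corrections, thinning, GC and length offsets, libraries left out and a replicate block. Symbols and positions came from GENCODE M21 (55230 of 55471 genes matched) and promoters from RefSeq. Ratios to Pdgfra used a prior count of 0.5 and needed a median of 10 reads in both groups. The edgeR fit was tested on simulated counts that had the same dispersion for all genes and no differences in background between libraries. The DESeq2 and RUVs fits were not tested in this way.

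The text names all 10 panel genes, Neuid and Olig2, the 2 highest and 2 lowest tested genes of each list, for lists of other cell types also the most abundant, and the 3 genes closest to Pdgfra, Cspg4 and Xylt1. Further list members are named because counts were small, after their values were seen, and some list genes are not reported here. The panel and the lists were chosen with earlier results of these data known. The smallest library held 11152556 reads, and the lowest chi-square per degree of freedom between 2 libraries of a group was 3.37, above counting noise.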

Additional observations from a re-analysis of the deposited data

Results flagged for a closer look

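In groups of 6 libraries, 132 sets of values were checked for a library far from the others by Dixon's criterion, which flags about 1 set in 20 by chance, and 12 stood out. Among the panel genes, Neu4 in Neuid KD replicate 1 was at 1.77 CPM, where the other Neuid KD libraries were between 0.0699 and 0.576 CPM. Xylt1 in the same library was at 77.6 CPM against 94.2 to 98.9 CPM. That library had the fewest reads (11152556) and the most background of the Neuid KD libraries (604 CPM). It also stood apart for Lhfp (11.8 CPM, others 7.99 to 9.27), Slc1a2 (1425 CPM, others 1825 to 2004), Vtn (1.35 CPM, others 0.187 to 0.451) and Map2 (2106 CPM, others 2594 to 2790).

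The remaining values were spread over other libraries. In control, Pdgfa in replicate 3 was at 43.4 CPM (others 38.8 to 40.2), Pxylp1 in replicate 6 at 22.4 CPM (others 17.999 to 19.5) and Lhfp in replicate 5 at 4.44 CPM (others 5.78 to 6.14). In Neuid KD, Pdgfc in replicate 6 was at 6.49 CPM (others 3.45 to 4.20), Mbp in replicate 6 at 6.75 CPM (others 4.51 to 5.15) and Dcn in replicate 5 at 18.7 CPM (others 21.02 to 21.98). Without Neuid KD replicate 1 the log2 fold change of Xylt1 was 1.38, and that of Neu4 was -0.76.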

How the results depend on the processing

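Xylt1, Olig2 and Neuid kept their direction and call under all 26 alternatives, and 0 of the 10 panel genes were called lower under any of them. Gpr17 and C1ql1 had a value in only 24 of the alternatives, and Neu4 and Enpp6 in 22. The number called higher was 1 instead of 2 with DESeq2 size factors, upper-quartile factors, no filter on low counts, thinning, and within the 5 libraries under 100 CPM of background, where Lhfpl3 was lost. Lhfpl3 was also lost within the 7 libraries with at least 100 CPM (adjusted p = 0.283), where the count stayed at 2 because Pdgfra was called (adjusted p = 0.00616). The number past a log2 fold change of 0.5 was 1 under the same settings and with 1 or 2 factors of unwanted variation. With each library left out in turn, both counts lay between 1 and 2, and they were 2 only without control replicate 3. The number called was 3, with Pdgfra added, with background as a covariate or 1 or 2 factors of unwanted variation.

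Directions turned for genes that were not called: Cspg4 was at -0.13 within the libraries under 100 CPM, Gpr17 at 0.016 and 0.041 with 1 and 2 factors of unwanted variation, C1ql1 at 0.34 within the libraries with at least 100 CPM, Neu4 at -0.015 with upper-quartile factors, and the Neu4 to Pdgfra ratio at -0.22 with a prior count of 2. With libraries left out, C1ql1 ranged from -0.27 to 0.11, Neu4 from -0.76 to 0.52 and the Neu4 to Pdgfra ratio from -0.69 to 0.37. The causes were not tested.

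The deviations of same-numbered libraries of the 2 groups had correlations from -0.64 to 0.77, with 2 of 6 pairs over 0.1. These 2 pairs, replicates 1 and 3 (0.77 and 0.75), were also alike in background (653 and 604 CPM, and 26.0 and 26.9 CPM). Every pair with a negative correlation joined a library with at least 100 CPM of background to a library under it. Shared background and a shared culture cannot be told apart in this check, so whether the numbers pair the libraries is not known. For 2 of the 6 control libraries, the Neuid KD library that correlated best had the same number. With a replicate block, 3 panel genes were called higher, Pdgfra (0.41, adjusted p = 0.041) being added to Xylt1 and Lhfpl3. Over all genes, calls moved from 1235 higher and 473 lower to 711 and 229 without a filter, to 1049 and 1259 with upper-quartile factors, to 1681 and 1399 with 1 factor and 1619 and 1272 with 2 factors of unwanted variation, and to 1775 and 987 with background as a covariate. Within the libraries with at least 100 CPM they were 651 and 205, and within those under it 1110 and 799. The share of calls that were higher was 45.5% with upper-quartile factors and 61.4% with GC and length offsets, against 72.3%.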
